A study of Mus musculus with 16 samples.

Results

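Resident macrophages of the liver, the Kupffer cells, were followed through 10 of their marker genes: C1qa, C1qb, C1qc, Clec4f, Vsig4, Marco, Cd5l, Timd4, Adgre1 and Cd68. The genes were chosen by symbol from general knowledge of the cell type, but with earlier results of these data known. Counts of markers called are therefore not those of a set chosen ahead of the data. All 10 were found among the 40840 genes of the raw count table. Each was read in every library, from 7 reads for Timd4 to 1061 reads for Marco, and all 10 passed the filter on low counts.

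Kupffer cells line the liver sinusoids, where they clear bacteria, dying cells, old red cells and debris from the blood. They bind their cargo either directly, through scavenger and lectin receptors, or through complement, whose classical pathway starts when C1q recognises a target and whose later product C3b is bound by the receptor encoded by Vsig4. Clec4f, Timd4, Vsig4, Marco and Cd5l are known in mouse liver as genes of resident Kupffer cells, whereas Adgre1 and Cd68 are expressed by macrophages in general.

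The study asked how the hour of dosing and the circadian clock bear on the response to oxaliplatin, a platinum drug that crosslinks DNA. All 16 libraries were made from livers of male C57BL/6J mice aged 12 to 16 weeks, held for 3 weeks in cycles of 12 h light and 12 h dark and then in constant darkness from 3 days ahead of dosing. All received oxaliplatin at 12 mg/kg intraperitoneally on 3 days (the series text also speaks of a single dose), at circadian time 8 (CT8) or 16 (CT16), so no group without drug was analysed here. The genotypes were wild type (WT) and Cry1-/- Cry2-/- (CryDKO), which lacks both cryptochromes, the repressors of the circadian clock, and was bred from heterozygotes of the same background. The 4 groups, WT_CT8, WT_CT16, CryDKO_CT8 and CryDKO_CT16, had 4 libraries each. The sources used here do not give the hour at which livers were taken. Nor do the labels say outright that each library came from its own mouse. If libraries shared mice, p-values measure only how far these samples spread, which may be technical.

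Libraries held 18083916 to 29934138 counted reads. Levels are normalised read counts per 1000000 (CPM) after scaling with TMM factors, and libraries are called by the running number of their column. Markers of hepatocytes summed to 51783 to 157179 CPM, so the libraries were those of liver. In whole liver RNA, fewer cells of a type and less RNA per cell cannot be told apart. Within WT_CT16, library 8 stood apart from libraries 5, 6 and 7: it was the highest of the 4 for 10 of 10 markers, against 35.487% of the 14484 genes tested. Its level was 1.96 times the mean of the other libraries for C1qa and 4.15 times for Vsig4, with a median of 2.80 over the markers and 1.002 over all genes tested. For 9 markers library 8 also exceeded all 4 WT_CT8 libraries, and for Cd68 it lay within them. Summed markers of hepatocytes were lower in library 8 (55553 CPM, against 82114 to 96759 in the other 3), and those of stellate cells and fibroblasts (184.5 against 80.8 to 110.7) and of sinusoidal endothelium (102.7 against 39.7 to 68.1) were higher. Its sums for hepatocytes and endothelium lay within the WT_CT8 ranges (51783 to 63362 and 79.4 to 110.9 CPM), and that for stellate cells and fibroblasts above (132.0 to 168.1). Its TMM factor, 1.203, also lay within those of WT_CT8 (1.131 to 1.241), and libraries 5, 6 and 7 had 0.921 to 0.955. The part of this make-up in the marker levels was not tested, and each comparison is given with and without library 8. Because library 8 was the highest of its group for every marker, leaving it out lowers each WT_CT16 marker mean. Calls gained that way are therefore no separate evidence.

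The C1q genes encode the 3 chains of the recognition unit of the classical complement pathway, and in the mouse they lie side by side on chromosome 4 in the order C1qb, C1qc, C1qa. The 250 bases before the start of transcription are shown for C1qb and C1qc, 2 neighbours with like values, for Clec4f, whose log2 change by genotype at CT8 was 0.11, and for Marco, which had the widest change by genotype at both times. They come from RefSeq promoters on GRCm38.p6, which is not the build of the count table, and 8 of the 10 markers had an entry there, all except C1qa and Adgre1. The start is thus that of RefSeq. In GENCODE M21 (GRCm38) the C1qc and Clec4f genes begin at 136893065 and 83656187, inside the windows shown. Capitals in C1qc mark the 8 letters ACTTCCTC, which read GAGGAAGT on the other strand.
C1qb, chr4:136886201-136886450, minus strand: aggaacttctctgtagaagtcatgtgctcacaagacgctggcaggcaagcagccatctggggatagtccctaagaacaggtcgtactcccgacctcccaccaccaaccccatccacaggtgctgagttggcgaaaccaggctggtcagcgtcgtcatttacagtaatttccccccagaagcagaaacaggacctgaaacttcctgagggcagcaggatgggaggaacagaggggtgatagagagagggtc
C1qc, chr4:136892915-136893164, minus strand: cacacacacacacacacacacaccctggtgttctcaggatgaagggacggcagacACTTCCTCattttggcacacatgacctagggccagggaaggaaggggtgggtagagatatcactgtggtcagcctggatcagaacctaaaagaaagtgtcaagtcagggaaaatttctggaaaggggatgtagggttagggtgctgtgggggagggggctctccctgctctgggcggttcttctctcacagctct
Clec4f, chr6:83656117-83656366, minus strand: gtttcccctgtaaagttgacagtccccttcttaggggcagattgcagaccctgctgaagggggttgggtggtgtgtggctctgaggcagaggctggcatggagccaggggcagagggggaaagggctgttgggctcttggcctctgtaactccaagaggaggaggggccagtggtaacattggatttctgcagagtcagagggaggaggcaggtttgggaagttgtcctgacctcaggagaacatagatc
Marco, chr1:120505025-120505274, minus strand: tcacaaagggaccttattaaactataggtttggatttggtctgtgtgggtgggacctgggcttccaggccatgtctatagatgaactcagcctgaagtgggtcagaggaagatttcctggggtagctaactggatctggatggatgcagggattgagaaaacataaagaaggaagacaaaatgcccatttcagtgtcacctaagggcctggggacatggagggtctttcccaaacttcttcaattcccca

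Each promoter was searched on both strands for 3 strings of letters. GAGGAAGT is a form of the site of PU.1, the macrophage transcription factor encoded by Spi1. It was found in 1 of 8 windows, that of C1qc at 195 bases before the RefSeq start. Of all 32851 windows of the same length, 2.44% held it. CACGTG, the E-box bound by the clock activators that cryptochromes repress, was found in 0 of 8 windows and in 6.02% of all windows. TGCTGAC, a core of the recognition element of MAF factors, was found in 1 of 8, that of Timd4 at 45 bases before the start, and in 3.81% of all windows. No string overlapped another there. The letters describe these windows only.

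C1qa was read at 9.18, 11.7, 7.72 and 9.68 CPM in WT_CT8 (libraries 1 to 4) and at 8.91, 5.58, 5.00 and 12.7 CPM in WT_CT16 (libraries 5 to 8). In CryDKO_CT8 it stood at 25.9, 18.9, 12.8 and 10.4 CPM (libraries 9, 10, 15 and 16), and in CryDKO_CT16 at 19.9, 19.0, 26.9 and 18.6 CPM (libraries 11 to 14). All CryDKO_CT16 libraries lay above all WT libraries, while CryDKO_CT8 library 16 lay below WT_CT8 library 2. C1qb followed with 8.38, 9.69, 6.25 and 6.83 CPM in WT_CT8 and 7.63, 3.92, 4.04 and 11.1 CPM in WT_CT16. It had 25.4, 15.9, 12.2 and 10.4 CPM in CryDKO_CT8 and 20.2, 16.9, 21.9 and 13.6 CPM in CryDKO_CT16. At either dosing time no CryDKO library of C1qb fell below a WT library of that time. C1qc had 6.98, 9.32, 7.13 and 8.59 CPM in WT_CT8, 7.10, 4.71, 3.34 and 12.9 CPM in WT_CT16, 23.3, 15.5, 9.02 and 10.1 CPM in CryDKO_CT8 and 19.3, 16.9, 23.0 and 12.9 CPM in CryDKO_CT16. Library 8 and CryDKO_CT16 library 14 were nearly equal for this chain. Of the reads of the 3 genes together, C1qa took 37.7% ± 0.875 (SD, n = 4) in WT_CT8 and 38.0% ± 2.46 (SD, n = 4) in WT_CT16. It took 35.8% ± 2.02 (SD, n = 4) in CryDKO_CT8 and 37.0% ± 3.26 (SD, n = 4) in CryDKO_CT16. Group means of the C1qb share ran from 30.6% in WT_CT8 to 33.8% in CryDKO_CT8. Those of C1qc ran from 30.4% in CryDKO_CT8 to 31.7% in WT_CT8. Over single libraries C1qb took 27.2% to 35.8% and C1qc 26.5% to 35.2%.

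Clec4f encodes a C-type lectin receptor found on Kupffer cells. It stood at 17.97, 20.1, 14.3 and 15.7 CPM in WT_CT8 and at 12.7, 4.82, 6.32 and 27.4 CPM in WT_CT16. In CryDKO_CT8 it stood at 25.0, 24.6, 12.0 and 11.8 CPM, and in CryDKO_CT16 at 33.8, 24.5, 40.5 and 34.9 CPM. Of the WT_CT16 libraries only library 8 reached the range of CryDKO_CT16, and in CryDKO_CT8 a pair of libraries lay above the WT_CT8 range and a pair below it. Vsig4, the complement receptor CRIg, had 4.0, 5.76, 3.02 and 3.04 CPM in WT_CT8, 2.48, 1.15, 0.882 and 6.24 CPM in WT_CT16, 6.06, 4.0, 2.77 and 2.23 CPM in CryDKO_CT8 and 5.88, 5.17, 6.34 and 3.38 CPM in CryDKO_CT16. Here too library 8 lay within the CryDKO_CT16 range, and libraries 5, 6 and 7 below it. Timd4, the phosphatidylserine receptor TIM-4 that binds dying cells, was low, with group means of 1.26 ± 0.502 (SD, n = 4) CPM in WT_CT8, 0.980 ± 0.845 (SD, n = 4) in WT_CT16, 1.01 ± 0.558 (SD, n = 4) in CryDKO_CT8 and 1.16 ± 0.528 (SD, n = 4) in CryDKO_CT16. Its 4 groups overlapped, and with 7 to 62 reads a library it was the least counted of the 10.

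Marco encodes a scavenger receptor that binds bacteria and particles. Its levels were 7.90, 12.6, 10.7 and 8.33 CPM in WT_CT8, 6.72, 3.71, 4.12 and 13.8 CPM in WT_CT16, 46.2, 11.7, 18.5 and 17.5 CPM in CryDKO_CT8 and 9.82, 16.8, 49.0 and 33.2 CPM in CryDKO_CT16. Marco had the largest SD of the 10 within both CryDKO groups, 15.5 CPM at CT8 and 17.5 CPM at CT16, with library 9 far above the other 3 of its group and the CryDKO_CT16 libraries spread over the whole range, and library 11 lay below WT library 8. Cd5l encodes AIM, a protein that macrophages secrete. It had 9.44, 12.1, 5.41 and 6.19 CPM in WT_CT8, 8.87, 3.20, 3.71 and 14.5 CPM in WT_CT16, 20.9, 15.5, 6.58 and 7.34 CPM in CryDKO_CT8 and 15.2, 11.5, 22.3 and 17.2 CPM in CryDKO_CT16. Its CryDKO_CT16 libraries lay above libraries 5, 6 and 7, and library 8 lay within them.

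Adgre1 encodes F4/80, the common surface marker of mouse macrophages. It had 1.91, 1.79, 1.09 and 0.976 CPM in WT_CT8, 2.31, 0.540, 0.551 and 3.49 CPM in WT_CT16, 4.31, 2.34, 1.49 and 1.09 CPM in CryDKO_CT8 and 3.59, 2.03, 4.34 and 2.56 CPM in CryDKO_CT16, and the genotypes overlapped at both times. Cd68, a glycoprotein of macrophage lysosomes and endosomes, had 4.37, 4.49, 4.24 and 3.38 CPM in WT_CT8 and 3.30, 1.62, 1.76 and 4.39 CPM in WT_CT16. It had 7.45, 3.41, 3.32 and 3.17 CPM in CryDKO_CT8 and 4.35, 3.49, 5.65 and 1.74 CPM in CryDKO_CT16. CryDKO libraries 9 and 13 lay above all WT libraries for Cd68, and the other 6 within the WT range.

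**Figure D1:**
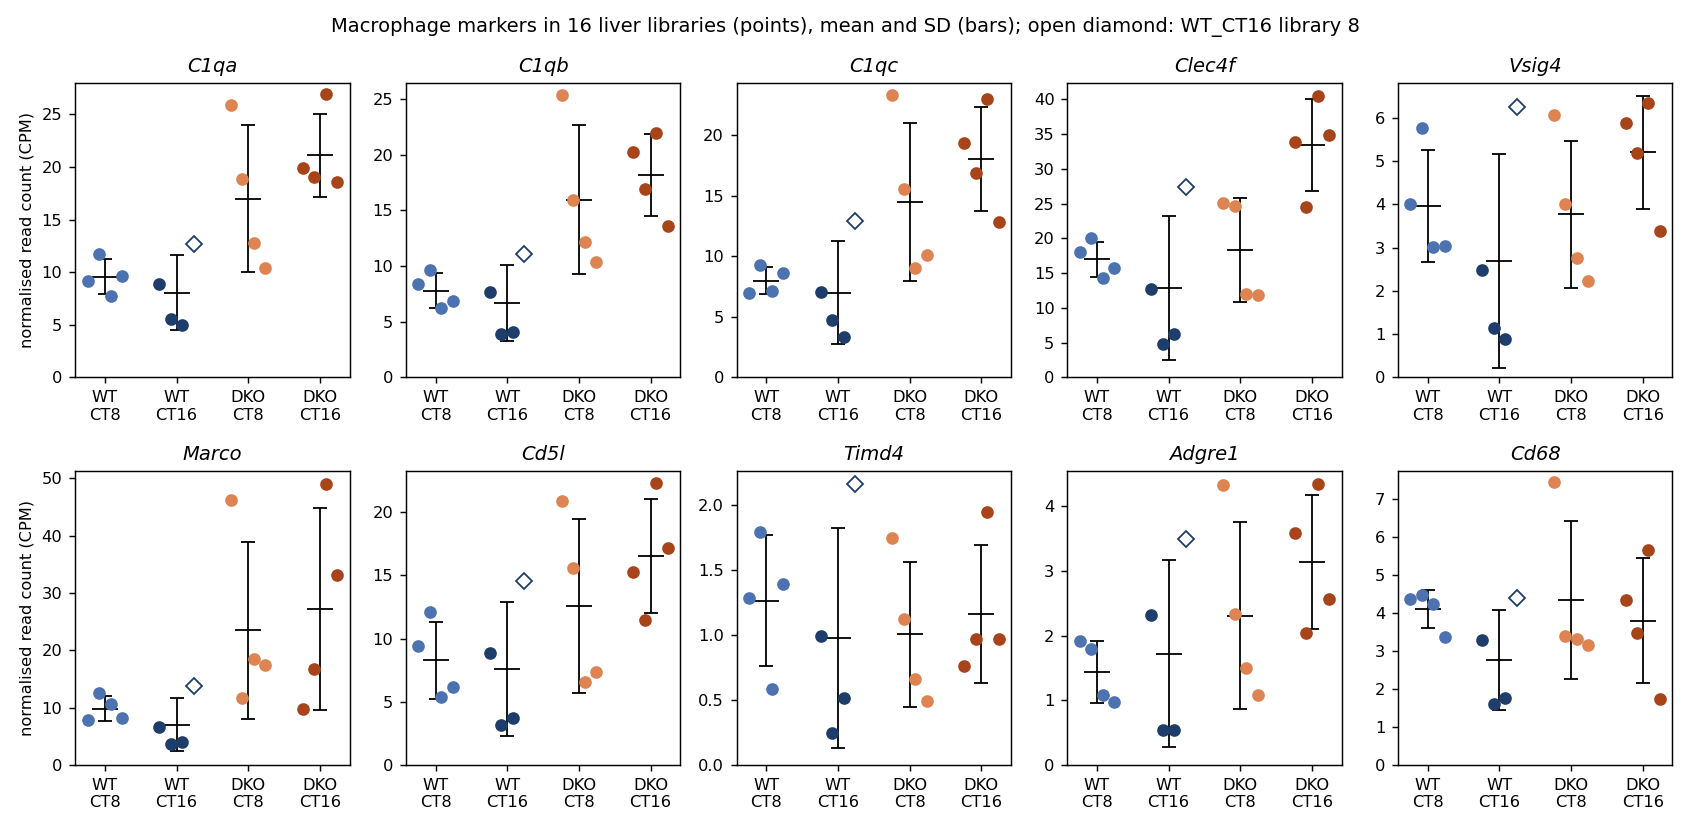
Normalised read count (CPM, linear axis from 0) of each marker in each library (points), by group, with the mean and SD of 4 libraries as bars and library 8 as an open diamond. C1qa reached 18.6 to 26.9 CPM in CryDKO_CT16 and 5.00 to 12.7 CPM in WT_CT16, and library 8 was the highest WT_CT16 point in every panel.

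Per kilobase of exon (lengths from GENCODE M21 on GRCm38), C1qa had the highest level of the 10 in every group and C1qb the next. In WT_CT8 C1qa stood at 9.21 ± 1.59 (SD, n = 4) CPM per kb and C1qb at 7.16 ± 1.43 (SD, n = 4). Next came Clec4f at 6.89 ± 1.02 (SD, n = 4), Marco at 5.14 ± 1.15 (SD, n = 4), C1qc at 4.15 ± 0.589 (SD, n = 4) and Cd5l at 4.07 ± 1.51 (SD, n = 4). Cd68 at 3.28 ± 0.401 (SD, n = 4) and Vsig4 at 2.67 ± 0.866 (SD, n = 4) followed, then Timd4 at 0.582 ± 0.231 (SD, n = 4) and Adgre1 at 0.446 ± 0.148 (SD, n = 4). In this order only the step from Vsig4 down to Timd4 exceeded the SDs of both neighbours added together. In CryDKO_CT16 the order was C1qa at 20.3 ± 3.75 (SD, n = 4) CPM per kb, C1qb at 16.7 ± 3.38 (SD, n = 4), Marco at 14.1 ± 9.10 (SD, n = 4) and Clec4f at 13.5 ± 2.67 (SD, n = 4). C1qc at 9.34 ± 2.21 (SD, n = 4), Cd5l at 8.12 ± 2.20 (SD, n = 4), Vsig4 at 3.50 ± 0.876 (SD, n = 4) and Cd68 at 3.03 ± 1.30 (SD, n = 4) came next. Adgre1 at 0.967 ± 0.319 (SD, n = 4) and Timd4 at 0.535 ± 0.243 (SD, n = 4) were again at the bottom. Here the steps from Cd5l to Vsig4 and from Cd68 to Adgre1 exceeded the added SDs, and the others did not.

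The genotypes were compared at CT16 first. C1qa, C1qb, C1qc and Marco, 4 of the 10 markers, rose in CryDKO against WT, and none fell. In the same comparison 9.0% of all genes tested were called higher. C1qa rose from 8.05 ± 3.56 (SD, n = 4) to 21.1 ± 3.90 (SD, n = 4) CPM, a log2 change of 1.39 ± 0.30 (SE, edgeR quasi-likelihood test, adjusted p = 0.00476). For C1qb the log2 change was 1.45 ± 0.33 (edgeR adjusted p = 0.00708), for C1qc 1.36 ± 0.37 (adjusted p = 0.0197) and for Marco 1.94 ± 0.58 (adjusted p = 0.0346). Clec4f, at 12.8 ± 10.3 (SD, n = 4) CPM in WT and 33.4 ± 6.61 (SD, n = 4) in CryDKO, had a change of the same size, 1.38 ± 0.45 on the log2 scale, and did not pass (edgeR adjusted p = 0.0504). Cd5l (1.12 ± 0.49), Vsig4 (0.94 ± 0.49), Adgre1 (0.85 ± 0.53), Cd68 (0.46 ± 0.36) and Timd4 (0.24 ± 0.54) did not pass either, with edgeR adjusted p from 0.13 for Cd5l to 0.792 for Timd4. The median log2 change of the 10 was 1.24, with 10 above 0, and that of all genes was -0.01. C1qa and C1qb, 2 of 10, had no overlap between the groups, higher in CryDKO, as had 9.65% of all genes.

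Without library 8, 7 of the 10 rose in CryDKO at CT16, against 5.98% of all genes: the 4 named above together with Clec4f, Vsig4 and Cd5l. The log2 change was then 2.07 ± 0.35 (SE) for Clec4f (edgeR adjusted p = 0.00189), 1.78 ± 0.39 for Vsig4 (adjusted p = 0.0062) and 1.65 ± 0.47 for Cd5l (adjusted p = 0.0368). It was 1.69 ± 0.28 for C1qa, 1.80 ± 0.30 for C1qb, 1.83 ± 0.31 for C1qc and 2.48 ± 0.59 for Marco. Adgre1 (1.47 ± 0.53, edgeR adjusted p = 0.0743), Timd4 (0.99 ± 0.52, adjusted p = 0.225) and Cd68 (0.76 ± 0.37, adjusted p = 0.182) did not pass. The same 7 genes had no overlap between 3 WT and 4 CryDKO libraries, as had 12.1% of all genes in this direction. The median log2 change of the 10 was 1.74 and that of all genes 0.00. The calls of C1qc and Marco in all 16 libraries each rested on single libraries. C1qc missed the threshold without WT_CT16 library 6 (edgeR adjusted p = 0.0513) or CryDKO_CT16 library 13 (0.0532), and Marco without WT_CT16 library 5, 6 or 7 (0.0717, 0.0819 and 0.0866) or CryDKO_CT16 library 13 or 14 (0.103 and 0.0701).

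At CT8, C1qa and C1qb, 2 of the 10, rose in CryDKO and none fell, where 18.7% of all genes tested were called higher, so the count of markers was near the background. C1qa went from 9.58 ± 1.66 (SD, n = 4) to 17.0 ± 6.96 (SD, n = 4) CPM, a log2 change of 0.83 ± 0.29 (SE, edgeR adjusted p = 0.0337). C1qb went from 7.79 ± 1.55 (SD, n = 4) to 16.0 ± 6.67 (SD, n = 4) CPM, a log2 change of 1.04 ± 0.32 (edgeR adjusted p = 0.0189), and was the only marker of the 10 with no overlap, where 18.7% of all genes had none in this direction. C1qc (0.86 ± 0.36, edgeR adjusted p = 0.0742) and Marco (1.25 ± 0.56, adjusted p = 0.0965) did not pass. Clec4f stood at 17.0 ± 2.52 (SD, n = 4) and 18.3 ± 7.48 (SD, n = 4) CPM, a log2 change of 0.11 ± 0.45, and Vsig4 had a log2 change of -0.07 ± 0.48. The changes of Cd5l (0.60 ± 0.49), Adgre1 (0.68 ± 0.54), Cd68 (0.08 ± 0.36) and Timd4 (-0.32 ± 0.53) did not pass. The median of the 10 was 0.64 on the log2 scale and that of all genes -0.02. Leaving out WT_CT16 library 8, which is in neither group but in the shared fit, gave 3 of 10, now with C1qc (0.88 ± 0.27, edgeR adjusted p = 0.0168), against 21.0% of all genes. Without CryDKO_CT8 library 9, the highest of its group for every marker, neither call remained (C1qa 0.58, edgeR adjusted p = 0.101, and C1qb 0.76, adjusted p = 0.0562). That of C1qa also ended without WT_CT8 library 1, 3 or 4 or CryDKO_CT8 library 10 (adjusted p = 0.0551, 0.069, 0.055 and 0.0704).

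Dosing time was compared within each genotype. In WT, 0 of the 10 markers passed between CT16 and CT8 in the edgeR fit of all libraries, where 2.53% of all genes did, and 0 markers had an unadjusted p under 0.05. DESeq2 and limma voom also called 0 of them. Their log2 changes ran from -0.57 ± 0.36 (SE) for Cd68 to 0.25 ± 0.54 for Adgre1, with a median of -0.31. Without library 8, Clec4f and Vsig4 fell at CT16, 2 of 10, where 11.5% of all genes were called lower. Clec4f then stood at 7.94 ± 4.16 (SD, n = 3) CPM at CT16 and 17.0 ± 2.52 (SD, n = 4) at CT8, a log2 change of -1.07 ± 0.33 (edgeR adjusted p = 0.0323). Vsig4 stood at 1.5 ± 0.853 (SD, n = 3) and 3.96 ± 1.29 (SD, n = 4) CPM, a log2 change of -1.37 ± 0.38 (edgeR adjusted p = 0.0171). These 2 genes, Marco and Cd68 had no overlap between the times, lower at CT16, as had 21.9% of all genes. All 10 log2 changes were below 0 without library 8, with a median of -0.74, and that of all genes was -0.02.

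In CryDKO, 0 of the 10 passed between CT16 and CT8, as did 0 of the 14484 genes tested by edgeR, of which 938 had an unadjusted p under 0.05, none of them a marker. DESeq2 called 14 genes, 0 of them markers, and limma voom 0 genes. The widest of the 10 changes was that of Clec4f, with 18.3 ± 7.48 (SD, n = 4) CPM at CT8 and 33.4 ± 6.61 (SD, n = 4) at CT16, a log2 change of 0.86 ± 0.45 (SE, edgeR adjusted p = 0.784). The others ran from -0.20 ± 0.36 for Cd68 to 0.46 ± 0.48 for Vsig4. The difference between the genotypes in the change from CT8 to CT16 passed for 0 of 10 markers in all 16 libraries, with 0 at an unadjusted p under 0.05, where it passed for 0.0414% of all genes (DESeq2 and limma voom also called 0 markers). It passed without library 8 for Clec4f (1.94 ± 0.45 on the log2 scale, edgeR adjusted p = 0.0342) and Vsig4 (1.83 ± 0.51, adjusted p = 0.0498), 2 of 10, where it was called higher for 1.87% of all genes. That of C1qa was 0.84 ± 0.36 (edgeR adjusted p = 0.173) and that of C1qb 0.74 ± 0.39 (adjusted p = 0.266).

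**Figure D2:**
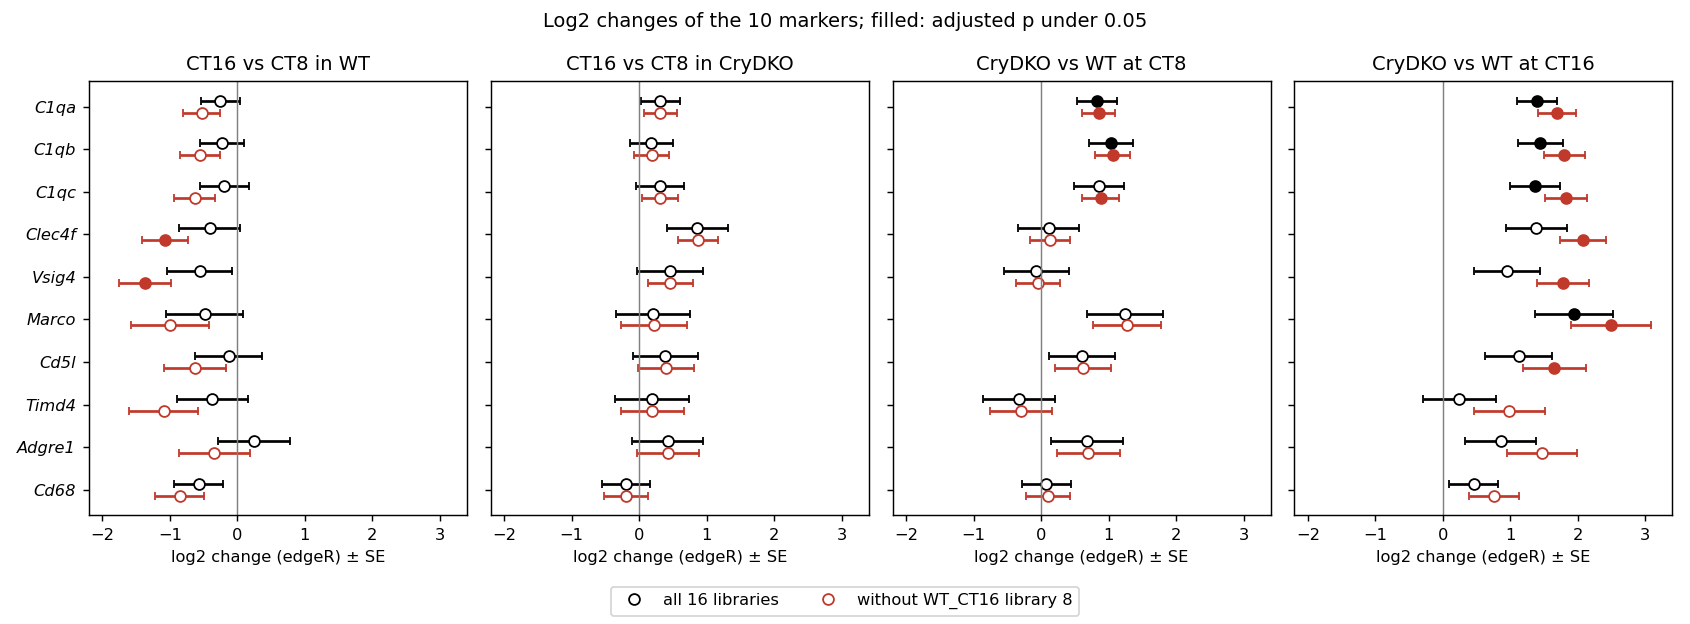
Log2 change with its SE (edgeR) of each marker in 4 comparisons, from all 16 libraries (black) and without library 8 (red), where filled points passed an adjusted p of 0.05. At CT16 the filled points by genotype go from 4 to 7 without library 8, and Clec4f and Vsig4 are filled to the left of 0 in WT only in red.

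The markers varied together over libraries within groups. When each gene's log2 CPM was centred on its own mean over the 16 libraries and averaged over the 10 markers, libraries 6 and 7 of WT_CT16 were lowest, at -1.47 and -1.40, with 0 of 10 markers above their own mean. Library 5 stood at -0.32 and library 8 at 0.49, so this group spanned more than any other. Library 13 of CryDKO_CT16 (1.13) and library 9 of CryDKO_CT8 (1.08) were the highest, each the top library of its group for 10 of 10 markers. Library 9 was also the highest of CryDKO_CT8 for summed markers of stellate cells and fibroblasts (312.0 CPM). For those of hepatocytes it was the lowest (103835 CPM), and for endothelium library 10 was higher (122.8 against 120.1 CPM). The part of this make-up in the marker levels was not tested. The other libraries of CryDKO_CT8 stood at 0.35 (library 10), -0.17 (library 15) and -0.32 (library 16). For each marker except Marco, libraries 9 and 10 lay above libraries 15 and 16, whose numbers come after those of CryDKO_CT16. The labels do not say what the numbering stands for. In WT_CT8, library 2 was the top library for 9 of 10, with an average of 0.20, and library 3 was the lowest at -0.46. CryDKO_CT16 library 14 (0.39) had the widest spread over the markers, an SD of 0.64, with Marco above and Cd68 below their own means.

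**Figure D3:**
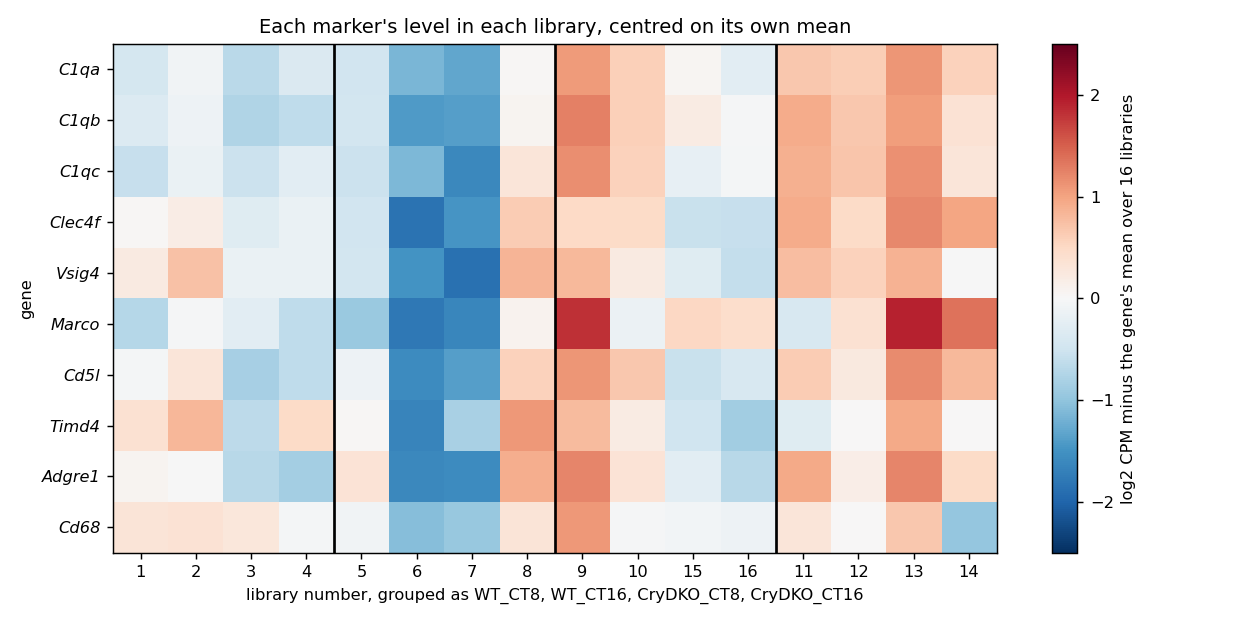
Log2 CPM of each marker (rows) in each library (columns, grouped by the black lines), minus the gene's own mean over 16 libraries, with red above and blue below it. Columns 6 and 7 are blue in every row (average -1.47 and -1.40), and columns 9 and 13 are red in every row (1.08 and 1.13).

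Closeness to this shared profile was measured by the root mean square difference over the 16 libraries, on the centred log2 scale, as a description with no test. Cd5l (0.222) and C1qa (0.223) lay closest to it among the 10 markers, themselves part of the average, and Cd68 (0.481), Timd4 (0.483) and Marco (0.585) farthest. Among 10755 genes whose mean log2 CPM reached 1 or more, the nearest that were not markers were Tyrobp (0.229), Csf1r (0.263), Laptm5 (0.277), Sdc3 (0.295), Spi1 (0.296), Lyz2 (0.298), Pik3cd (0.309) and Folr2 (0.330). Without library 8 the first 4 were in the same order, and Itgb2 (0.325) took the place of Pik3cd. Tyrobp, the gene of the adaptor DAP12 of myeloid receptors, stood at 2.62 ± 0.541 (SD, n = 4) CPM in WT_CT8, 1.76 ± 1.03 (SD, n = 4) in WT_CT16, 3.29 ± 1.30 (SD, n = 4) in CryDKO_CT8 and 3.91 ± 0.571 (SD, n = 4) in CryDKO_CT16.

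Because a ratio of 2 genes within a library does not depend on how libraries are scaled, reads of the markers were set against each other. These ratios were chosen after the values had been seen and carry no test. The reads of the 3 C1q genes together per Clec4f read were 1.49 ± 0.100 (SD, n = 4) in WT_CT8, with a range of 1.37 to 1.60, and 2.62 ± 0.413 (SD, n = 4) in CryDKO_CT8, with a range of 2.05 to 2.98. These ranges did not overlap, and 4.77% of all genes had, per Clec4f read, no overlap in this direction at CT8. At CT16 the ratio was 2.03 ± 0.672 (SD, n = 4) in WT and 1.74 ± 0.352 (SD, n = 4) in CryDKO, and the ranges overlapped, with library 8 the lowest of WT at 1.34. Marco reads per Clec4f read were 0.587 ± 0.133 (SD, n = 4) in WT_CT8, 0.613 ± 0.122 (SD, n = 4) in WT_CT16, 1.34 ± 0.597 (SD, n = 4) in CryDKO_CT8 and 0.784 ± 0.393 (SD, n = 4) in CryDKO_CT16, with overlap at both times. Cd68 reads per C1q read were 0.114 to 0.201 in the 8 WT libraries and 0.0386 to 0.103 in the 8 CryDKO libraries, with no overlap. Of all genes, 19.8% were likewise lower per C1q read in every CryDKO library, so this was common. Vsig4 reads per Clec4f read ranged from 0.0969 to 0.287 over all libraries, with group means from 0.160 in CryDKO_CT16 to 0.229 in WT_CT8. Cd5l reads per Clec4f read ranged from 0.377 to 0.834. Their group means were 0.475 in WT_CT8, 0.620 in WT_CT16, 0.660 in CryDKO_CT8 and 0.490 in CryDKO_CT16. For both ratios the genotypes overlapped at both times.

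**Figure D4:**
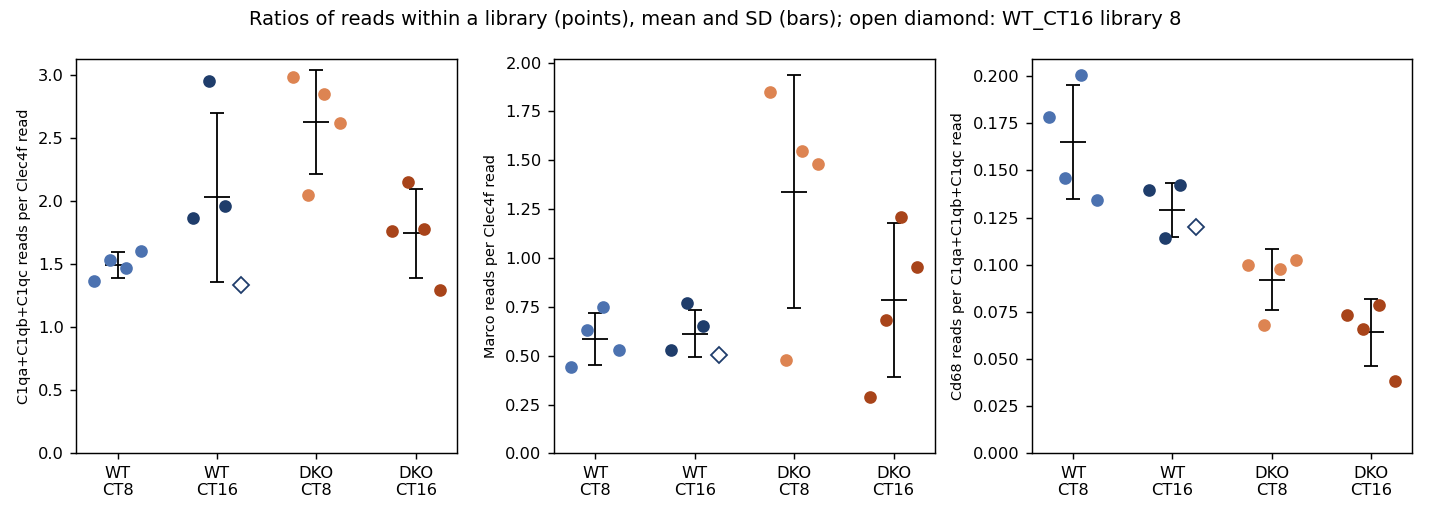
Ratios of reads within each library (points), by group, with the mean and SD of 4 libraries as bars, on linear axes from 0, and library 8 as an open diamond. C1q reads per Clec4f read separate CryDKO_CT8 (2.05 to 2.98) from WT_CT8 (1.37 to 1.60), and Cd68 reads per C1q read are lower in the 8 CryDKO libraries than in the 8 WT libraries.

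Other genes of the same biology were counted in 8 lists, chosen by known role and likewise with earlier results of these data known. Of 10 partners of C1q in the complement cascade, most of which hepatocytes secrete, 3 rose in CryDKO at CT8 and 0 fell: C2 (0.83 ± 0.16, SE on the log2 scale), the central component C3 (1.07 ± 0.25) and the lectin pathway protease Masp1 (0.58 ± 0.19). At CT16, 2 rose, C2 (0.52 ± 0.16) and Cfp, the gene of properdin, which stabilises the alternative pathway (0.88 ± 0.25). Without library 8 that of C2 ended (0.39 ± 0.16, edgeR adjusted p = 0.107) and that of Cfp remained (1.25 ± 0.21, adjusted p = 0.00111). C1ra and C1s1, the genes of the proteases that C1q activates, did not pass at either time in all 16 libraries, with log2 changes of 0.40 ± 0.17 and -0.14 ± 0.17 at CT8 and 0.32 ± 0.17 and 0.01 ± 0.17 at CT16. The median of this list was 0.22 on the log2 scale at both times.

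Of 12 genes of the CSF1 receptor, its ligands and Kupffer cell transcription factors, 5 rose in CryDKO at CT16 and 0 fell. Among them were Csf1r, the receptor on which macrophages depend (1.22 ± 0.34, SE on the log2 scale, edgeR adjusted p = 0.0187), Il34, a ligand of that receptor (1.12 ± 0.34, adjusted p = 0.0259), and Spi1, the gene of PU.1 (1.57 ± 0.41, adjusted p = 0.0135). Irf8, a transcription factor of myeloid cells, rose by 0.66 ± 0.20. The other ligand, Csf1, did not pass (0.48 ± 0.20, adjusted p = 0.105). Without library 8, 4 of 12 rose, with 1.65 ± 0.30 for Csf1r and 2.08 ± 0.41 for Spi1. At CT8, 2 rose, Il34 (1.26 ± 0.32) and Nr1h3, the gene of LXRα (0.35 ± 0.11), and Maf fell by 0.47 ± 0.17, while Csf1r (0.43 ± 0.33) and Spi1 (0.57 ± 0.40) did not pass. The median of the list was 0.29 at CT16 and 0.02 at CT8.

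Of 14 other Kupffer cell genes, 4 rose and 1 fell in CryDKO at CT16, and 7 rose and 1 fell without library 8. Those that rose in all libraries were Hmox1, the gene of haem oxygenase (1.23 ± 0.39), the protease gene Lgmn (0.62 ± 0.15), Sirpa, the receptor of the CD47 signal (0.83 ± 0.26), and the folate receptor gene Folr2 (1.25 ± 0.42). Hpgd, the gene of a prostaglandin-degrading enzyme, fell by 1.34 ± 0.22. It stood at 127 ± 24.9 (SD, n = 4) CPM in WT_CT16 and 50.1 ± 13.3 (SD, n = 4) in CryDKO_CT16, far above Clec4f in WT_CT16 (12.8). Which cells the Hpgd reads came from was not tested. Without library 8 Hmox1 no longer passed (1.36 ± 0.44, edgeR adjusted p = 0.0589), and Cd163, the haemoglobin scavenger receptor, now did (1.76 ± 0.42, adjusted p = 0.0114, against 0.99 ± 0.49 and 0.172 with it). The mannose receptor gene Mrc1 passed in neither (-0.03 ± 0.40 and 0.57 ± 0.32). At CT8, 2 rose, Hmox1 (1.46 ± 0.39) and Lgmn (0.75 ± 0.15), and Hpgd fell by 0.94 ± 0.22. The list's median was 0.64 at CT16 and 0.11 at CT8.

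Of 12 receptors and bridging molecules for the engulfment of dying cells 11 were tested, and 2 rose and 1 fell at CT16 and 3 rose and 1 fell at CT8. Cd14, a co-receptor for bacterial lipopolysaccharide that also binds dying cells, rose at CT16 by 2.56 ± 0.41 on the log2 scale (SE, edgeR adjusted p = 0.00056) and at CT8 by 3.14 ± 0.41 (adjusted p = 4.73e-05). Its level went from 0.985 ± 0.124 (SD, n = 4) to 5.82 ± 1.47 (SD, n = 4) CPM at CT16 and from 1.06 ± 0.228 (SD, n = 4) to 9.37 ± 7.85 (SD, n = 4) CPM at CT8. Stab2, a scavenger receptor mainly of sinusoidal endothelium, rose at CT16 (1.11 ± 0.20), and Cd36, a fatty acid and scavenger receptor, fell by 1.45 ± 0.34. At CT8 the lipoprotein receptor gene Scarb1 (1.02 ± 0.19) and Mfge8, whose product bridges dying cells to phagocytes (1.52 ± 0.30), rose and the receptor gene Mertk fell by 0.85 ± 0.18. The list's median was 0.29 on the log2 scale at CT16 and 0.18 at CT8. Axl, a relative of Mertk, did not pass at CT16 (0.67 ± 0.34, edgeR adjusted p = 0.173) and did without library 8 (1.01 ± 0.33, adjusted p = 0.0486).

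Of 14 general myeloid genes, 3 rose in CryDKO at CT16, Tyrobp (1.14 ± 0.34, SE on the log2 scale), Aif1, the gene of IBA1 (1.27 ± 0.36), and Laptm5, a lysosomal membrane protein of blood cells (1.32 ± 0.37), and 1 fell, Mpeg1, the gene of a pore-forming protein (-1.06 ± 0.32). Without library 8, 7 rose and 2 fell. At CT8, 1 rose, Coro1a, a regulator of actin in white cells (1.18 ± 0.33). The median was 0.71 at CT16 and 0.23 at CT8. Among 5 tested of 11 genes of monocytes and recruited macrophages, the integrin gene Itgam rose (1.39 ± 0.41) and the chemokine gene Ccl9 fell (-0.77 ± 0.22) at CT16. Ccl9 rose (0.72 ± 0.21) at CT8. The median of those tested was 0.34 at CT16 and 0.72 at CT8. The defining monocyte genes Ccr2 and Ly6c2 were too low to test, with group means of 0.108 to 0.349 CPM for Ccr2 and 0.160 to 0.216 CPM for Ly6c2.

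Of 8 genes of lipid-associated macrophages 7 were tested, and 3 rose at CT8, the apolipoprotein gene Apoe, which hepatocytes express most (0.79 ± 0.22), and the tetraspanins Cd9 (0.78 ± 0.22) and Cd63 (0.97 ± 0.31). At CT16, 0 rose and 1 fell, Lpl, the gene of lipoprotein lipase (-2.56 ± 0.66). Trem2, a lipid receptor of these cells, did not pass at CT8 (0.96 ± 0.46, edgeR adjusted p = 0.104) or CT16 (0.72 ± 0.46, adjusted p = 0.296), and Gpnmb was too low to test. The median was 0.40 at CT16 and 0.79 at CT8. Of 7 genes of class II antigen presentation, H2-Ab1 rose at CT16 (1.57 ± 0.36), and H2-Ab1 (0.99 ± 0.35) and H2-Eb1 (1.03 ± 0.39) rose at CT8, where Ciita, the master regulator of the class, fell by 1.03 ± 0.39. Their median was 1.00 at CT16 and 0.84 at CT8. Against all of these counts, 9.0% of genes were called higher and 9.15% lower by genotype at CT16, and 18.7% and 20.3% at CT8. Without library 8 the shares at CT16 were 5.98% and 6.89%.

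The calls named from these lists were also made without each library in turn. At CT16, 7 of the 22 held each time, those of Spi1, Hpgd, Lgmn, Cd14, Stab2, Cd36 and H2-Ab1. The other 15, among them those of Csf1r, Tyrobp, Laptm5, Folr2 and Sirpa, ended without some library, with edgeR adjusted p of 0.0501 to 0.13. CryDKO_CT16 library 13 ended 13 of them when left out, and WT_CT16 libraries 5, 6, 7 and 8 ended 9, 8, 11 and 2. CryDKO_CT16 libraries 11, 12 and 14 ended 6, 6 and 3, and libraries of the CT8 groups at most 3 each. At CT8, 14 of 21 held each time, and those of Cd63, Ciita, H2-Ab1, H2-Eb1, Maf, Masp1 and Nr1h3 ended without some library, with adjusted p of 0.0501 to 0.245. Libraries 1 to 4 of WT_CT8 ended 4, 5, 4 and 5 of these, libraries 9, 10, 15 and 16 of CryDKO_CT8 ended 5, 3, 3 and 2, and libraries of the CT16 groups at most 2 each.

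**Figure D5:**
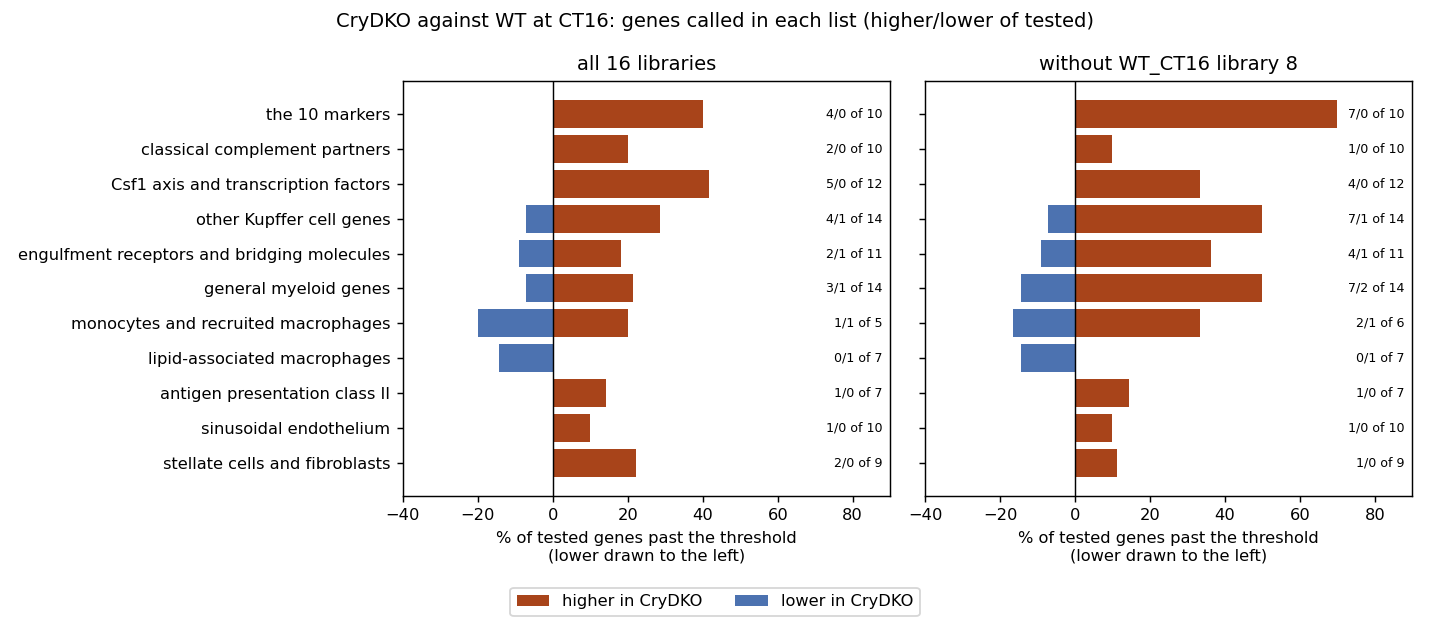
Share of tested genes (percent) called higher (right of 0) or lower (left of 0) in CryDKO against WT at CT16 (edgeR adjusted p under 0.05) in each list, from all 16 libraries and without library 8. The 10 markers go from 4 to 7 called higher, and general myeloid genes from 3 of 14 to 7 of 14.

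Markers of other liver cells are given beside these values, and their part in the changes of the macrophage markers was not tested. The 8 hepatocyte markers summed to 51783 to 63362 CPM in WT_CT8 and to 103835 to 142599 CPM in CryDKO_CT8, and to 55553 to 96759 CPM in WT_CT16 and 102713 to 157179 CPM in CryDKO_CT16, without overlap at either time. Alb, the albumin gene, made up most of these sums, with 49863 ± 11358 (SD, n = 4) CPM in WT_CT16 and 88379 ± 22245 (SD, n = 4) in CryDKO_CT16. Of the 8 hepatocyte markers one by one, 2 were called higher at CT16 in all 16 libraries, against 9.0% of all genes, and 0 without library 8, with 4 log2 changes above 0 in either fit and medians of 0.07 and -0.09. At CT8, 5 of the 8 were called higher, against 18.7% of all genes, with 7 above 0 and a median of 0.93. The 10 macrophage markers summed to 60.5 to 89.3 CPM in WT_CT8, 29.5 to 108.7 in WT_CT16, 74.5 to 186.3 in CryDKO_CT8 and 117.3 to 201.8 in CryDKO_CT16. Those of sinusoidal endothelium summed to 79.4 to 110.9 CPM, 39.7 to 102.7, 60.9 to 122.8 and 58.3 to 93.7 in the same order of groups, and those of stellate cells and fibroblasts to 132.0 to 168.1, 80.8 to 184.5, 147.7 to 312.0 and 59.4 to 177.3. Of 9 tested stellate cell and fibroblast markers 2 were called higher by genotype at CT16 and 4 at CT8, or 1 and 5 without library 8. As shares, these counts stood above those of all genes at CT8 (18.7%, or 21.0% without library 8). At CT16 they did too (9.0%, or 5.98% without library 8), there with 1 gene called. In all 16 libraries, 9 of the 9 log2 changes were above 0 at CT8 and 7 at CT16, with medians of 0.65 and 0.37. The macrophage markers had a median of 0.64 at CT8 and 1.24 at CT16. Of 10 endothelial markers 1 was called higher at CT16 and 0 at CT8, with and without library 8, which is near or below the background of 9.0% and 18.7% of all genes (5.98% and 21.0% without library 8). Dendritic cell markers summed to 8.31 to 10.3 CPM in WT_CT8 and to 3.43 to 8.30 CPM in the other groups. Neutrophil markers summed to 1.36 to 11.5 CPM, T and NK cell markers to 0.404 to 4.01 CPM and B cell markers to 0.198 to 1.53 CPM over all groups. Of 8 neutrophil markers up to 4 had no read in a library (Camp, Ngp, Ly6g and Mmp8 most often), and of 4 B cell markers up to 2 (Ms4a1 most often). Cholangiocyte markers summed to 5.29 to 12.5 CPM in WT_CT8 and 14.6 to 17.9 CPM in CryDKO_CT8, without overlap, and to 8.89 to 16.2 CPM in WT_CT16 and 4.97 to 19.6 CPM in CryDKO_CT16. Erythroid markers summed to 39.8 to 48.1 CPM in WT_CT8 and 12.7 to 31.3 CPM in CryDKO_CT8, again without overlap, and to 28.3 to 50.6 CPM in WT_CT16 and 12.0 to 43.4 CPM in CryDKO_CT16. The sums do not speak for each erythroid gene, as up to 3 of the 5 had no read in a library. Only 2 were tested in all 16 libraries, with 1 called higher and 1 lower by genotype at CT8, and 1 higher and 0 lower at CT16. Without library 8, 3 were tested, with 2 higher and 0 lower at CT8 and 1 higher and 0 lower at CT16.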

How the data were processed

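Poly(A)-selected liver RNA of 16 libraries was sequenced as read pairs. Per the submitters' processing notes, FastQC, Trimmomatic 0.35, STAR 2.5.3, HTSeq 1.99.2, DESeq2 and the build GRCm39 (mm39) were used. The sources used here name neither the annotation nor the strand setting nor other parameters. The deposited table used here holds counts, whole reads per gene symbol, not normalized. A second deposited table of normalized values was not used.

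The deposited counts were fitted with edgeR 4.0.16 in R 4.3.3: filterByExpr kept 14484 of 40840 genes, TMM scaled the libraries, and the robust quasi-likelihood test was fitted to all 4 groups, or to 15 libraries without WT_CT16 library 8, with filter and scaling made again. CPM values keep the scaling of all 16 libraries. P-values are two-sided and adjusted by Benjamini-Hochberg over all genes tested in each of 5 comparisons, with a threshold of 0.05. The SE was taken as the absolute log2 change over the root of its F value. Log2 CPM used a prior count of 2. The procedure was tested on simulated data, with 50 genes per size of change. A 2-fold change was recovered for 76% of them between times in WT and 42% in CryDKO. Between genotypes it was 58% at CT8 and 48% at CT16, and for the interaction 32%. A 4-fold change was recovered for 82% to 92%, so a marker not called may still have changed by 2-fold. Alternatives were DESeq2 1.42.0, limma 3.58.1 (voom, with and without quality weights), other scaling and filters, no robust option, a fit to the compared groups alone, and the omission of each library in turn. Promoters, ratios and figures used Python 3.11.15. In 24 pairs of libraries from 1 group, chi-square over its degrees of freedom was 20.17 to 136.4, so none was a repeat within sampling noise.

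The members, the lists and the tests were chosen with earlier results of these data known. All 10 members are named. From each list, up to 6 called genes with the lowest adjusted p and the first 2 as listed could be named, and not all are given in the text. The 8 nearest patterns were also named. Gene positions and lengths are of GRCm38, so the count table's own build was not used for them. Reads show counting error besides the spread between libraries, most for Timd4.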

Additional observations from a re-analysis of the deposited data

Results flagged for a closer look

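Of the 40 sets of 4 library values (10 markers in 4 groups), 2 held a library far from the other 3, by a gap that, as a part of the range of the set, exceeded Dixon's 95% critical value for 4 samples, where chance gives about 1 in 20 sets. C1qa in CryDKO_CT16 was highest in library 13, at 26.9 CPM, with a gap of 0.846 of the range. Cd68 in CryDKO_CT8 was highest in library 9, at 7.45 CPM, with a gap of 0.943. These libraries were the highest of their groups for all 10 markers.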

How the results depend on the processing

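No log2 change of the 10 markers reversed past the threshold under any alternative run: of the values recomputed for them, 1144 kept their side of it, 22 lost a call, 33 gained one and 31 that had no call changed sign without gaining one. The count of markers called between genotypes at CT16, 4, became 2 with library size alone or with no low-count filter and 9 with limma voom and quality weights, and ranged from 2 to 7 with 1 library left out. The count at CT8, 2, became 0 with library size alone, 1 with no low-count filter or with a mean of at least 50 reads, and 4 with only the groups of the comparison, and ranged from 0 to 3 with 1 library left out. Between times in WT the count, 0, became 5 with quality weights and ranged from 0 to 2 with 1 library left out. For the interaction, 0 became 4 with quality weights and ranged from 0 to 2. Between times in CryDKO the count was 0 under each alternative. Over all genes, the 367 called between times in WT by edgeR became 1546 with DESeq2, 955 with limma voom, 5237 with quality weights, 663 with no low-count filter, 712 with only the groups of the comparison, 3580 without library 8 and 0 to 697 without any other library. The 6 of the interaction became 134 with DESeq2, 1 with limma voom or with a mean of at least 50 reads, 940 with quality weights, 0 with library size alone, 30 with no low-count filter, 568 without library 8 and 0 to 9 without any other library. Those between times in CryDKO, 0, became 14 with DESeq2, 2 with no low-count filter and 0 to 3 with 1 library left out. Those between genotypes ranged from 4274 to 6610 at CT8 (5649 by edgeR with all libraries) and from 1790 to 3293 at CT16 (2629). Library size alone moved the median of all genes by -0.34 on the log2 scale between genotypes at CT8, by -0.15 at CT16, by -0.25 between times in WT and by 0.19 for the interaction. With library size alone the log2 changes of C1qa and C1qb at CT8 were 0.50 and 0.71, above 0, and neither passed. A mean of at least 50 reads left 8 of the 10 markers to test. The cause of these changes between settings was not tested. No paired analysis was possible because count columns are numbered 1 to 16 across groups, which gives no replicate number.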
